A study of Mus musculus with 12 samples.

Results

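Oligos that encode the active site of trypsin-like serine proteases were examined on mouse spleen arrays, and 4 of 35852 oligos met the criterion. Only non-control oligos whose identifier is M plus 9 digits were searched. An oligo was taken as a member if its sequence, translated in any forward frame without a stop codon, encoded 1 of 2 short protein patterns. The first is the stretch around the catalytic serine, which reads glycine, aspartate, serine, glycine, glycine, proline. The second is the stretch around the catalytic histidine, which reads leucine, valine, isoleucine or phenylalanine, then serine or threonine, then 2 alanines, histidine and cysteine. The rule used sequence alone and no measured value, though it was set with earlier results of these data known. The spleen samples were 3 from 4-month-old, 3 from 8-month-old and 4 from 12-month-old 564 Igi mice and 2 from 4-month-old C57BL/6 mice, all female and on a C57BL/6 background. 564 Igi animals carry knocked-in antibody genes. Their genotype is 564+/- in the sample labels but homozygous 564+/+ in the treatment protocol, and which applies was not settled. Part of the homozygous colony drank antibiotics, and whether any of these samples came from that part is not stated. Each array compared 1 spleen sample (Cy3) with a universal reference RNA (Cy5). Whether replicates were separate animals is not stated, so a p-value here reflects only sample-to-sample spread, which may be technical.

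Serine proteases of this family cut proteins with a catalytic triad of histidine, aspartate and serine, and most are made as inactive precursors. In the immune system they include the granzymes, which cytotoxic lymphocytes deliver into target cells, and the granule proteases of neutrophils and mast cells. Other members act in blood clotting, in complement and in digestion by the pancreas. The residue at the floor of the substrate pocket, a short way before the catalytic serine, sets which peptide bond is cut, and an aspartate there favours cutting after lysine or arginine.

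The 4 members are shown because each carries the bases that place it in the class, with those bases in capitals, written 5′ to 3′ as the array files give them.
M400009405: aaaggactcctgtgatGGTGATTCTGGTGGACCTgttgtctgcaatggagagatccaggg
M400008174: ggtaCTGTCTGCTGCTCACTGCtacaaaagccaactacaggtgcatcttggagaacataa
M400010523: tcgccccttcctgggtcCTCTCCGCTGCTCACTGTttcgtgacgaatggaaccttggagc
M200015672: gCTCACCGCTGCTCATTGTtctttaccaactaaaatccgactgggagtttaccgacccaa
In M400009405 the capitals encode the catalytic serine pattern, and in the other three they encode the catalytic histidine pattern. Neither pattern was found on the reverse strand of any oligo searched (0 oligos for each).

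M400009405 is the only oligo with the serine pattern among the 35852 searched. It reaches upstream to the residue 6 positions before the catalytic serine, where its codon, GAC at bases 5 to 7, encodes aspartate. The 3 histidine-pattern oligos do not cover that residue, so the kind of bond their proteases cut cannot be read from them. All 3 start the pattern with leucine, followed by serine in M400008174 and M400010523 and by threonine in M200015672. Within the 18 pattern bases, M200015672 and M400010523 were equal at 16, M400008174 and M400010523 at 15, and M200015672 and M400008174 at 13. Aligned at the pattern, M200015672 and M400008174 were equal at 35.1% of 57 bases, and M400010523 was equal to M200015672 at 56.8% of 44 bases and to M400008174 at 57.4% of 47 bases. The longest run of bases that any member shared with another oligo searched, on either strand, was 14. GC content was 46.7% in M400008174, 48.3% in M200015672, 51.7% in M400009405 and 60% in M400010523. The files do not pair oligos with genes, so the proteases are given by identifier and sequence, and neither their genes nor markers of spleen cell types could be named.

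Each member has 1 spot per array, and none of these spots was uneven in signal or background. Over all oligos, the Cy3 channel was well above background for 91.2% on 564 Igi 4 months replicate 1 and for 69.4% to 75.9% on each of the others. The arrays lay on 3 slides of 4 arrays each, and slide 1 held no C57BL/6 array. Levels are log2 of sample over reference after an offset of 50 was added to both channels. So 1 unit is a doubling on that scale, and the offset draws the ratios of dim spots towards 0. On 564 Igi 8 months replicate 1, M400009405 had processed signals of 972 in Cy3 and 74.1 in Cy5, beside a level of 2.10. Levels of different oligos depend on the reference RNA and are not compared as amounts. The number of arrays limits the precision of every value.

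M400009405, the oligo with the catalytic serine and the aspartate of the pocket, varied most among the members. Its log2 ratio was 0.94 and 1.04 in C57BL/6 replicates 1 and 2. At 4 months in 564 Igi it was 0.81, 1.70 and 1.38 in replicates 1 to 3. At 8 months it was 2.10, 0.36 and 2.10. At 12 months it was 1.61, 1.67, 2.24 and 1.49 in replicates 1 to 4. The sample RNA was above the reference on every array, and 564 Igi 8 months replicate 2 was the lowest of all 12 arrays while the other two of its group were among the 3 highest. The SD over the 12 arrays was 0.57, larger than that of 98.2% of the 25999 tested oligos with a value on all arrays, whose median SD was 0.16. The spread was larger in the spleen channel, whose log2 signal had an SD of 0.64 after quantile normalization, against 0.17 for the reference channel. Both SDs include the offset, which flattens the dimmer reference channel more. The processed signals ranged 7.14-fold between arrays in Cy3 and 4.54-fold in Cy5. The processed Cy3 signal ran from 136 to 972 with a median of 487, and the Cy5 signal of the shared reference from 30.7 to 140 with a median of 60.6, all well above background.

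The group means of M400009405 were 0.99 ± 0.069 (SD, n = 2) in C57BL/6, 1.29 ± 0.45 (n = 3) at 4 months, 1.52 ± 1.00 (n = 3) at 8 months and 1.75 ± 0.33 (n = 4) at 12 months. No neighbours in this order differed beyond their spread, and their arrays overlapped. At 4 months, 564 Igi differed from C57BL/6 by 0.30 on the log2 scale (SE 0.45, 95% interval -0.68 to 1.28, limma adjusted p = 0.821). It was 0.097 without 564 Igi 4 months replicate 2, 0.55 without replicate 1 of that group and -0.17 with spots of uneven background kept. None of those spots was its own, and that setting alters the background correction of whole arrays. The difference of 12 months from C57BL/6 was 0.76 (SE 0.43, 95% interval -0.17 to 1.69, 1.69-fold on the scale with the offset, adjusted p = 0.506). That SE comes from a spread shared by all groups of the fit. With only the arrays of these 2 groups the difference was the same, with SE 0.20 and a limma adjusted p of 0.203. With each array left out it ran from 0.60 to 0.85. In that comparison the 2 groups of arrays did not overlap, as was the case for 20.3% of oligos. Within slides 2 and 3 the same difference was 0.72 and 0.83. Age and strain are mixed in it, since C57BL/6 was measured only at 4 months. Between 4 and 12 months in 564 Igi, the difference was 0.46 (SE 0.38, 95% interval -0.36 to 1.28, adjusted p = 0.788), and it was 0.36 within slide 1 and 0.29 within slide 2. It was 0.22 without 564 Igi 4 months replicate 1, 0.30 without 12 months replicate 3 and 0.93 with spots of uneven background kept.

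For M400009405 at 8 months, single arrays decided the values. The difference of 8 from 4 months was 0.23 (SE 0.40, adjusted p = 1.00 after rounding), but 0.85 within slide 1 and -1.01 within slide 2, which held replicate 2. Without 564 Igi 8 months replicate 2 it was 0.80, without 8 months replicate 1 or replicate 3 it was -0.064 and -0.063, and without 4 months replicate 1 it was -0.018. The difference of 8 months from C57BL/6 was 0.53 (SE 0.45, adjusted p = 0.659), with -0.58 within slide 2 and 1.05 within slide 3. It was 1.10 without 8 months replicate 2, with an adjusted p of 0.0668, the lowest that any member reached in any comparison over a range from 0.0668 to 0.910 in this one. The difference of 12 from 8 months was 0.23 (SE 0.38, adjusted p = 0.990) and turned to -0.34 without 8 months replicate 2.

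M400008174 encodes the catalytic histidine pattern with serine as its second residue. Its log2 ratio was 0.17 and 0.21 in C57BL/6 replicates 1 and 2. In 564 Igi it was 0.090, 0.22 and 0.11 at 4 months and 0.56, -0.23 and 0.27 at 8 months. At 12 months it was 0.28, 0.13, 0.41 and 0.37. On the scale with the offset it thus lay near the level of the reference. It was highest on 8 months replicate 1, where the processed signals were 193 in Cy3 and 73.6 in Cy5. It was lowest on 8 months replicate 2, and every group overlapped every other. The means were 0.14 ± 0.066 (SD, n = 3) at 4 months, 0.19 ± 0.028 (n = 2) in C57BL/6, 0.20 ± 0.40 (n = 3) at 8 months and 0.30 ± 0.12 (n = 4) at 12 months. The 564 Igi samples at 4 months differed from C57BL/6 by -0.047 (SE 0.18, 95% interval -0.44 to 0.35, limma adjusted p = 0.940). From 4 to 12 months the difference was 0.16 (SE 0.15, 95% interval -0.17 to 0.49, adjusted p = 0.821). The spot was dim in both channels, with processed signals of 88.6 to 214 in Cy3 and 57.9 to 168 in Cy5, though well above background on all 12 arrays.

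M400008174 and M400009405 moved together from array to array, though other oligos followed each of them more closely. Over the 12 arrays Pearson's r was 0.817 (permutation test, 100000 resamples, p = 0.00072, adjusted p = 0.00432 over the 6 pairs of members). Spearman's rho was 0.797 (permutation p = 0.00275, adjusted p = 0.0165). Without 564 Igi 8 months replicates 1 and 2, the arrays farthest from the median of M400008174, r was 0.653 (permutation p = 0.0417, before adjustment). With group means removed r was 0.838, and with slide means removed 0.759. Within slides 1, 2 and 3, each of 4 arrays, it was 0.883, 0.800 and 0.588. With the Cy3 channel alone, quantile normalized between arrays, r was 0.850, and with the Cy5 channel of the reference alone it was 0.571. The reference RNA was the same on every array, and the part of the shared variation in that channel in the relation was not tested. The size of the movement differed, with an SD of 0.20 for M400008174 and 0.57 for M400009405. The other 5 pairs of members had r between -0.31 and -0.12, with adjusted permutation p of 0.676 for each. Among 25998 other oligos, 6 had r over 0.9 with M400009405, and the closest to M400008174 had r of 0.885. The relation is thus not particular to these members.

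M400010523, the other oligo with serine in the histidine pattern and the brightest member spot, had a log2 ratio of 0.090 and 0.059 in C57BL/6 replicates 1 and 2. In 564 Igi it was -0.061, -0.079 and 0.15 at 4 months and 0.35, 0.43 and -0.074 at 8 months. At 12 months it was -0.20, 0.43, 0.11 and 0.18. The arrays of every group overlapped those of every other, and the levels lay on both sides of the reference. The means were 0.0017 ± 0.12 (SD, n = 3) at 4 months, 0.074 ± 0.022 (n = 2) in C57BL/6, 0.13 ± 0.26 (n = 4) at 12 months and 0.24 ± 0.27 (n = 3) at 8 months. The difference of 564 Igi from C57BL/6 at 4 months was -0.073 (SE 0.18, 95% interval -0.47 to 0.32, limma adjusted p = 0.904), and that of 8 from 4 months was 0.23 (SE 0.16, 95% interval -0.12 to 0.59, adjusted p = 1.00 after rounding). The processed signals themselves ranged 3.75-fold between arrays in Cy3, from 641 to 2405, and 3.67-fold in Cy5, from 695 to 2550. Both channels rose and fell together, with r = 0.916 over the 12 arrays after quantile normalization of each channel. The ratio to the reference therefore had an SD of 0.21 where the sample channel alone had 0.51.

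M200015672, with threonine in the histidine pattern, was close to the limit of detection. Its Cy3 signal was well above background on 1 of 2 C57BL/6 arrays, on 3 of 3, 1 of 3 and 0 of 4 of the 564 Igi arrays at 4, 8 and 12 months, with processed signals of 21.0 to 209. It entered the test only through the 564 Igi samples at 4 months, so its differences from that group say little. The log2 ratio was 0.38 and -0.00013 in C57BL/6 replicates 1 and 2. In 564 Igi it was 0.11, 0.14 and 0.093 at 4 months and -0.022, -0.071 and -0.033 at 8 months. At 12 months it was -0.14, -0.042, -0.060 and 0.0082. All 4-month samples of 564 Igi lay above all samples of 8 and 12 months, by amounts that did not pass the test (8 minus 4 months -0.16, SE 0.098, limma adjusted p = 1.00 after rounding, and 12 minus 4 months -0.17, SE 0.092, adjusted p = 0.680). Groups that did not overlap were found for 9.22% and 8.82% of oligos in these comparisons.

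At 12 months M200015672 was not well above background on any array, so its ratios there are those of a spot near background and no fold is given. The difference of 12 months from C57BL/6 was -0.25 (SE 0.10, adjusted p = 0.345), with an unadjusted limma p of 0.0343, the only one of the members under 0.05 in any comparison. In that comparison 12.7% of all tested oligos had an unadjusted p under 0.05. It rested on C57BL/6 replicate 1, since it was -0.43 within slide 2, which holds that array, and -0.026 within slide 3. Without C57BL/6 replicate 1 it was -0.057, and without replicate 2 it was -0.44.

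Across the class, no member passed an adjusted p of 0.05 in any of the 6 comparisons. In 564 Igi against C57BL/6 at 4 months, 0 of 4 members were called where 0.407% of 26279 oligos were, and 1 of the 4 lay above 0. The arrays of 0 members were apart without overlap, which held for 34.7% of oligos. The median log2 difference of the members was -0.060, beside 0.0097 for all tested oligos. Against C57BL/6 at 4 months, the samples of 8 and 12 months had 0 of 4 members called, where 0.624% and 0.906% of oligos were. The member medians were 0.087 and 0.084 and those of all oligos -0.0012 and 0.0028, and 3 of 4 members lay above 0 in both. Without M200015672, which was near background, the member medians were 0.16 and 0.11. The arrays did not overlap for 1 member in each, M200015672 at 8 months and M400009405 at 12 months, beside 28.8% and 20.3% of oligos. For M200015672 the nearest arrays were C57BL/6 replicate 2 (-0.00013) and 8 months replicate 1 (-0.022). Its difference of 8 months from C57BL/6 was -0.23 (SE 0.11, limma adjusted p = 0.373), and -0.042 without C57BL/6 replicate 1. These comparisons share the same 2 C57BL/6 arrays.

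With age in 564 Igi, 0 of 4 members were called from 4 to 8 months, where 0% of oligos were, and 0 of 4 from 4 to 12 months, where 0.00381% were. The member medians were 0.14 for both and those of all oligos -0.0094 and -0.0011, with 3 of 4 members above 0. Without M200015672, which entered only through the 4-month arrays, they were 0.23 and 0.16. From 8 to 12 months 0 of 4 members were called, where 0% of oligos were, with a median of 0.043 (0.10 without M200015672) beside 0.0032 and no overlap for 0 members, beside 4.63% of oligos. An unadjusted limma p under 0.05 was found for 0 of 4 members from 4 to 8, 4 to 12 and 8 to 12 months, where 3.14%, 7.64% and 4.22% of oligos had one. It was found for 0, 0 and 1 of 4 members at 4, 8 and 12 months against C57BL/6, where 12.6%, 14% and 12.7% of oligos had one. These shares leave 0 or 1 of 4 members close to the background. A moderated F test over the 3 ages gave adjusted p values of 0.929 to 0.949 for the 4 members. The lowest was that of M200015672, which entered only through the 4-month arrays, so its value says little. The widest intervals were those of M400009405, which at 4 months included changes from 0.68 lower to 1.28 higher on the log2 scale. They use a spread shared by all 12 arrays, those of 8 months included. For the 4-month difference that gave an SE of 0.45, against 0.24 with only the arrays of the 2 groups.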

How the data were processed

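RNA from 12 spleen samples was measured on 2-colour Agilent arrays. Per the file headers, Feature Extraction 11.5.1.1 quantified the spots, and the deposited intensity columns hold mean spot and median background brightness without normalization. A second deposited pair of intensity columns holds processed signals, with the background removed and the dyes normalized. The deposited log10 ratio is reference over sample, and its sign was turned where it was used. Mean signals were corrected in limma 3.58.1 (R 4.3.3) by normexp with an offset of 50. Spots of uneven background were given their array's median background and then left out. Loess followed within arrays, with control spots at weight 0. Oligos well above background in Cy3 on all arrays of at least 1 group were kept (26290), and 26279 with a value in every group were tested.

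One limma fit held all 12 arrays, with Benjamini-Hochberg adjustment over all tested oligos and a threshold of 0.05. The fit was tested on simulated data. Sequences were translated with Biopython 1.88. All members were described 1 by 1, which covers the rule fixed for naming them. The members, the patterns and the processing were chosen with earlier results of these data known. The planned naming by RefSeq protein, the families and the lists of cell markers and protease partners were not used, since they need a protein table not used here. Same-numbered replicates were checked for pairing, which the check could not settle, and the fit did not pair them. Alternatives were other background, scaling and filter settings, slide or replicate number as a block, only the groups compared, and each array left out.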

Additional observations from a re-analysis of the deposited data

How the results depend on the processing

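No member passed the threshold under any of the 22 alternatives, over 522 fold changes whose lowest adjusted p was 0.0668, so the count of members called was 0 throughout. The sign of 27 of these fold changes turned, none of them called. With the scanner's log ratio these were 12 minus 8 months in M200015672 (0.20) and M400010523 (0.11), and 8 months minus C57BL/6 in M400008174 (-0.031) and M400010523 (-0.11). With median centring they were M400010523 at 4 months minus C57BL/6 (0.20) and at 12 minus 4 months (-0.18), and M200015672 at 12 minus 8 months (0.053). With the sample channel alone they were M400008174 (0.11) and M400010523 (0.79) at 4 months minus C57BL/6, and M400010523 at 8 minus 4 months (-0.15) and 12 minus 4 months (-0.46). With uneven-background spots kept, M400009405 at 4 months minus C57BL/6 was -0.17. With slide as a block, M400008174 at 8 months minus C57BL/6 was -0.039, and with the replicate number as a block it was -0.018. The block changed no call. Of 15 pairs of arrays with the same number, 5 correlated above 0.1 in their deviations from group means (range -0.23 to 0.29). The pair with the highest value also shared slide 1. Pairs with different numbers were not computed, so the check cannot tell whether the numbers pair the samples.

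With each array left out, values crossed 0 at 4 months minus C57BL/6 for M200015672 (-0.27 to 0.11), and at 8 minus 4 months for M400009405 (-0.064 to 0.80) and M400008174 (-0.12 to 0.27). They did so at 8 months minus C57BL/6 for M400008174 (-0.17 to 0.23) and at 12 months minus C57BL/6 for M400010523 (-0.045 to 0.17). At 12 minus 8 months all members crossed 0, M400008174 from -0.11 to 0.28, M400009405 from -0.34 to 0.52, M200015672 from -0.037 to 0.010 and M400010523 from -0.26 to 0.0036. The member median ranged from -0.093 to 0.21 at 8 minus 4 months and from -0.033 to 0.15 at 8 months minus C57BL/6.

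The member median moved by more than the spread between arrays (SD 0.12) in 13 of 132 cases, of which 4 left out an array and lie within the ranges above. The others were as follows. With the scanner's log ratio it was -0.19 and -0.069 at 4 and 8 months minus C57BL/6 and 0.18 at 12 minus 8 months. With median centring it was 0.096 at 4 months minus C57BL/6. With the sample channel alone it was 0.29, 0.37 and 0.24 at 4, 8 and 12 months minus C57BL/6, and -0.032 and -0.038 at 8 and 12 minus 4 months. The cause was not tested. The alternative that kept only members matched to a RefSeq protein was not run. The dim spots of M200015672 limit what its ratio can show, and the filter on both channels removed it, which left member medians of 0.23 at 8 minus 4 months and 0.16 at 8 months minus C57BL/6.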

Other observations

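Oligos that held only a shortened pattern lay just outside the class. The last 4 residues of the histidine pattern were found in 1 further oligo, M400000209, and as often on the reverse strand (4 oligos) as on the forward strand (4, members included). The last 5 residues of the serine pattern were found in M400008122 and M300004420 besides M400009405, with 1 oligo on the reverse strand. None of these was called in any comparison. Over the 12 arrays the log2 ratio ran from 1.17 to 2.23 in M400000209 and from -1.71 to -0.42 in M300004420.

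M400008122, whose sequence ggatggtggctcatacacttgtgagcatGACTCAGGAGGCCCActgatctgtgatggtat has the shortened serine pattern in capitals, was above the reference on every array. The highest log2 ratio, 2.94, came from replicate 1 of 564 Igi at 4 months, and elsewhere it lay between 0.97 and 2.07. Its processed Cy3 signal was 2850 on that array and at most 952 on the others. That array is the one with 91.2% of oligos well above background, and its part in the value was not tested. The mean was 2.00 ± 0.82 (SD, n = 3) at 4 months, 1.97 ± 0.093 (n = 3) at 8 months, 1.37 ± 0.30 (n = 4) at 12 months. In C57BL/6 it was 1.80 ± 0.38 (n = 2). The reference channel was well above background on 5 of 12 arrays, with 1 of 3 at 8 months and 1 of 4 at 12 months, so these ratios rest on a reference signal near background.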
